A study of Homo sapiens with 4 samples.

Results

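RAB GTPases are the small GTP-binding proteins that give each membrane of the cell its traffic identity. All protein-coding genes whose symbol is RAB followed by a number and at most a letter and a digit were taken, without RAB effectors or interacting proteins. This gave 63 members among the 60682 genes of the count table, and 50 of them had enough counts to be tested. RNA-seq was made from JJN3, a long-established cell line of human multiple myeloma, which is a cancer of antibody-secreting plasma cells. All 4 libraries came from transduced cells: 2 carried an shRNA against WNK1 (shWNK1) and 2 carried the NS shRNA, the control group. WNK1 encodes a kinase that regulates chloride cotransport and cell volume. The labels name 1 hairpin target and no time after transduction, the second shWNK1 title reads shNWK1, and nothing says that replicates are separate cultures. All p-values therefore measure spread between libraries alone, and that spread may be technical.

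RAB proteins switch between a GDP-bound form held in the cytosol by GDP dissociation inhibitors and a GTP-bound form on membranes. Exchange factors turn them on, GTPase-activating proteins turn them off, and a geranylgeranyl tail added with the help of RAB escort proteins anchors them. The active form recruits effectors such as tethers, motors and coat adaptors, so each RAB serves particular routes between the endoplasmic reticulum (ER), Golgi, endosomes, lysosomes and plasma membrane. Plasma cells move large amounts of immunoglobulin along the early part of this pathway.

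Depth was 16973521 and 20164122 counts in shWNK1 against 17491537 and 17392619 in NS, so 3 counts, about the upper limit that a count of 0 allows, equal 0.149 to 0.177 CPM, which are counts scaled to a common library size. WNK1 itself stood at 18.6 and 19.6 CPM in the shWNK1 libraries and at 288 and 245 CPM in the NS libraries, 13.9-fold lower with the hairpin. Of the plasma cell and myeloma markers, 7 of 7 were detected, with summed levels of 1430 to 1460 CPM in shWNK1 and 1630 to 1710 CPM in NS. Within that sum the members moved unequally: SDC1 fell from 209 and 225 CPM to 82.0 and 91.4 CPM and CD38 from 11.3 and 11.1 to 7.22 and 7.54, while SLAMF7 rose from 1.35 and 1.65 to 12.1 and 11.3. The mature B cell markers summed to 2.98 to 3.22 CPM against 6.68 to 8.15 CPM with MS4A1 and CD22 at 0. T and NK cell markers reached 0.0973 to 0.344 CPM against 0.352 to 0.650 CPM (CD3D at 0), myeloid markers 0.459 to 0.487 against 0.531 to 1.11 (LYZ at 0), and erythroid markers 0 to 0.0487 against 0.117 to 0.473 (HBB at 0). Stromal, endothelial and epithelial markers summed to 123 to 130 CPM against 110 to 122 CPM, nearly all of it EPCAM, with COL1A2 and KRT19 at 0. The part of these marker shifts in the RAB results was not tested.

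RAB transcripts moved in both directions. Of the 50 tested members, 15 rose and 12 fell at an edgeR adjusted p under 0.05, which is 54.0% of them, beside 38.8% of all 14864 genes tested. The rises made up 30% of the members, beside 18.5% of all genes, and the falls 24.0%, beside 20.2% of all genes. At least 1.5-fold change together with a call was reached by 12 members (24.0%), beside 14.9% of all genes. The shWNK1 and NS libraries did not overlap for 37 of the 50 (74.0%), which is near the 68.4% of all genes. The median log2 fold change was 0.04 over the members and 0.01 over all genes, with the members running from -2.19 (RAB20) to 1.46 (RAB40A, not called). In RNA from bulk cells, less transcript per cell and fewer cells holding the transcript cannot be told apart. Without shWNK1 replicate 1, 6 members rose and 8 fell (28.0%, beside 23.0% of genes), and without shWNK1 replicate 2, 9 rose and 8 fell (34%, beside 23.3%). DESeq2 called 9 rises and 10 falls (38.0%, beside 29.8%). RAB5C, RAB6A, RAB7A, RAB8B, RAB12, RAB22A, RAB27A, RAB31, RAB35, RAB40B and RAB40C, 11 of the 27 called members, were called under all 10 alternatives tried. The same share over all called genes was not counted, so 11 of 27 cannot be read as high or low.

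**Figure D1:**
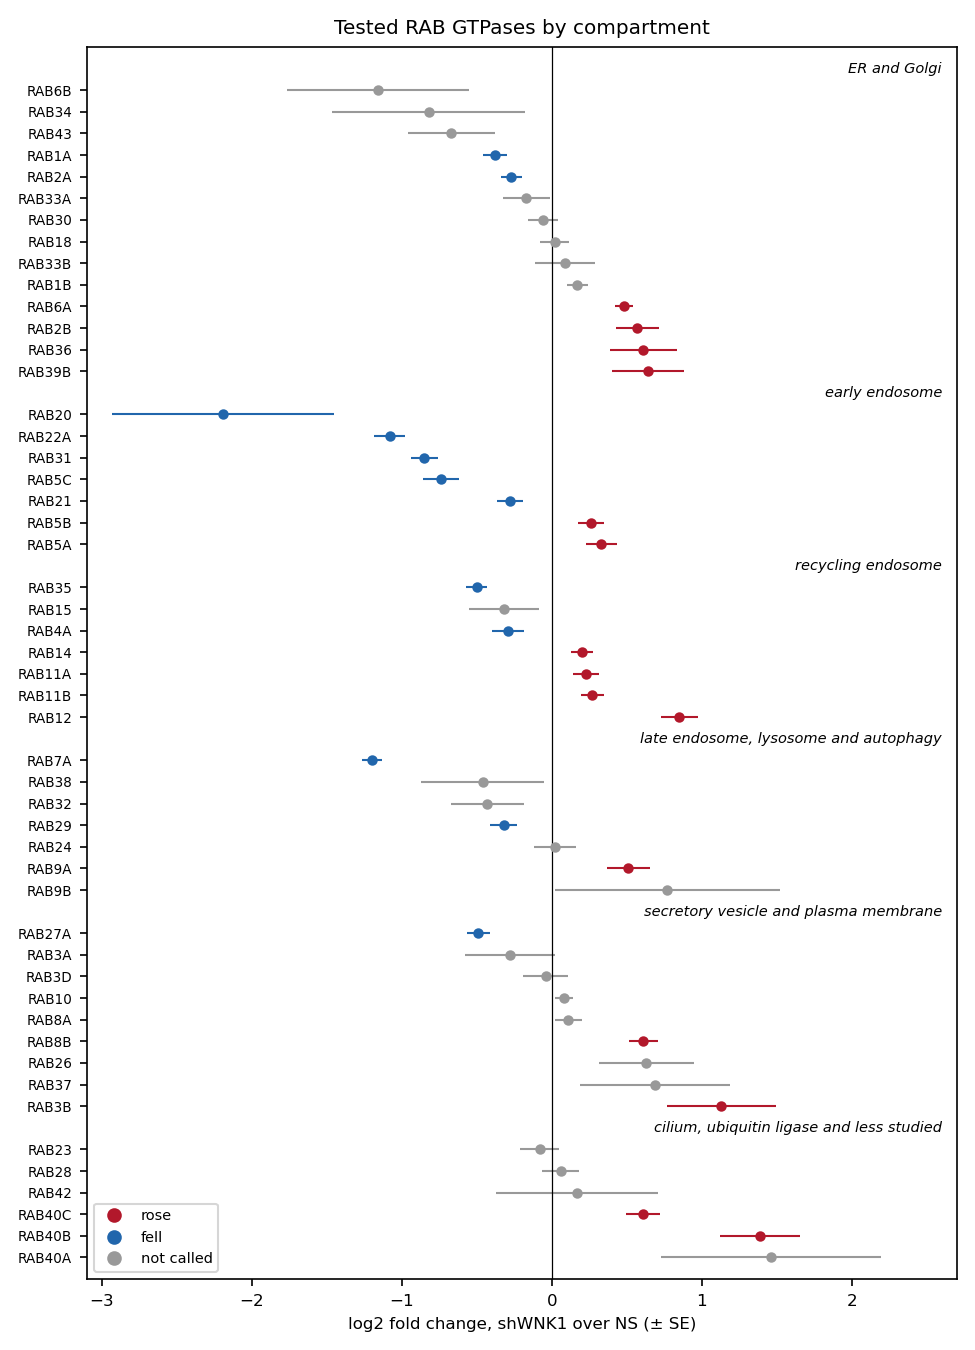
Log2 fold change of each of the 50 tested RAB genes (shWNK1 over NS, horizontal axis, bars are 1 standard error), grouped by the membrane where the protein acts, with rises in red, falls in blue and genes not called in grey. Of the 7 early endosome genes 5 fell and 2 rose, and RAB7A at -1.20 lies apart from the other late endosome and lysosome genes.

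**Figure D2:**
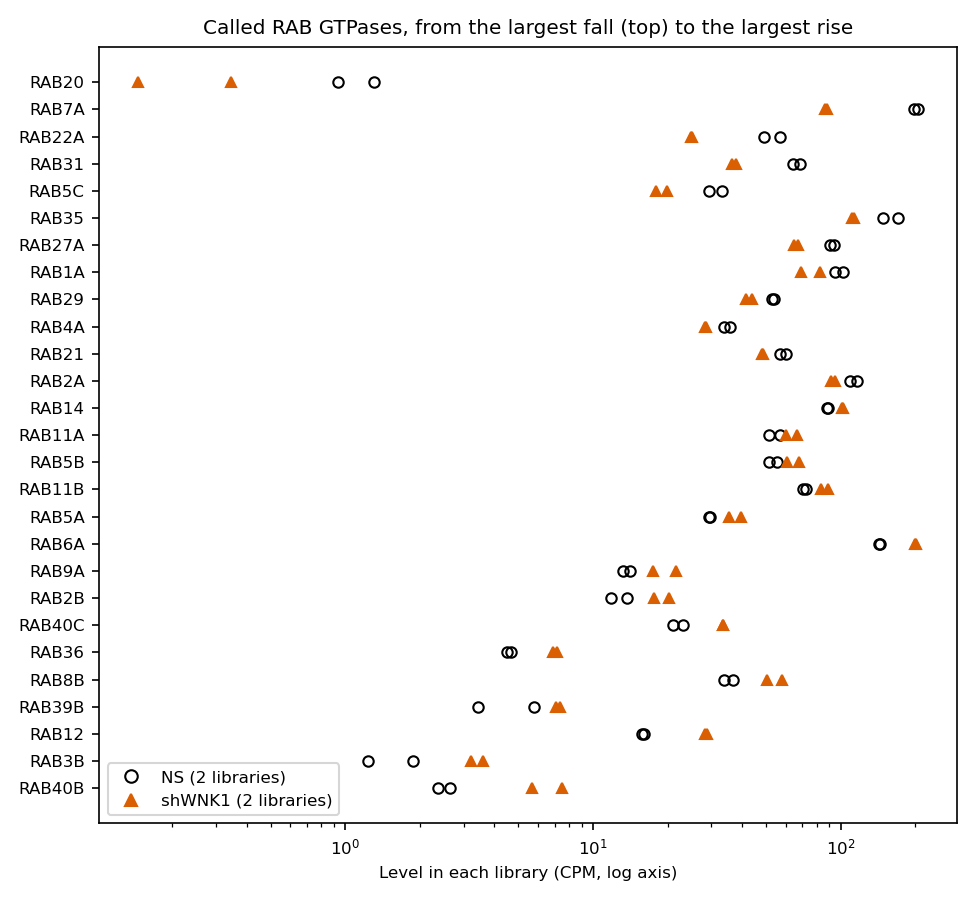
Level of each of the 27 called RAB genes in every library (CPM, log axis), with open circles for the 2 NS libraries and triangles for the 2 shWNK1 libraries. No gene shown has overlapping groups, and the gap is many times the replicate spread for RAB6A, RAB7A and RAB12.

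Among falling members, a 6-base word, AGTATC on the transcript strand, recurred in the 3′ untranslated region (UTR). The word was taken from an earlier analysis of these same data, in which it was commoner in falling transcripts, so its presence here is not independent of the fold changes. Windows of 30 bases around it are shown because they cover most RABs that fell and both that rose with the word, which is in capitals, each read 5′ to 3′ from GENCODE v29 transcripts (hg38).
RAB7A: agatctttttacAGTATCcatttattatgt
RAB22A site 1: tggggaaaagcaAGTATCtattgcttagca
RAB22A site 2: agcaagaattcaAGTATCaaggcctatcag
RAB22A site 3: gggcttaatcctAGTATCatttggccatta
RAB31: agctgaggggtaAGTATCctagctgagagt
RAB5C: atgtaaccaatcAGTATCttgtcaatatag
RAB27A: aggaaaaataaaAGTATCatgaaaaaacct
RAB29: gcagggctttttAGTATCaaatcactacta
RAB4A: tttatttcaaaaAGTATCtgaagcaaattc
RAB21 site 1: gtggatttcattAGTATCcaaatttattta
RAB11A (rose): tttattctgagtAGTATCttaggagacaaa
RAB3B (rose), site 1: cctggatattttAGTATCtatatccaataa
The RAB7A window is at chr3:128813993-128814022 on the plus strand, with its word at base 583 of a 3′ UTR of 1374 bases. The RAB22A windows are at chr20:58360547-58360576, chr20:58364666-58364695 and chr20:58365406-58365435 on the plus strand, in a 3′ UTR of 7804 bases. RAB31 (chr18:9861242-9861271), RAB4A (chr1:229305209-229305238), RAB21 (chr12:71790953-71790982) and RAB11A (chr15:65889917-65889946) also lie on the plus strand. The windows of RAB5C (chr17:42125000-42125029), RAB27A (chr15:55203905-55203934), RAB29 (chr1:205769043-205769072) and RAB3B (chr1:51916387-51916416) lie on the minus strand.

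RABs of late endosomes, lysosomes and autophagy lost the most summed transcript, and RAB7A carried that loss. RAB7A (ENSG00000075785.13, chr3:128726183-128814798, plus strand) recruits effectors for fusion of late endosomes and autophagosomes with lysosomes. It had 86.5 and 88.3 CPM in the shWNK1 libraries against 198 and 205 CPM in the NS libraries. The replicates nearly coincide and the groups are far apart. Its log2 fold change was -1.20 (SE 0.066), 2.30-fold lower, with an edgeR adjusted p of 6.2e-16. Reads over exon bases shared with other genes may go uncounted, which may lower some levels per kilobase. By level per kilobase of all exon bases, RAB7A ranked number 2 among the RABs in NS, at 75.7 CPM per kb, and number 5 in shWNK1, at 32.9 CPM per kb. Its close relative RAB7B had 0 counts in all 4 libraries, so no other RAB7 transcript was detected at this depth. RAB29, which acts at the Golgi and lysosome and recruits the kinase LRRK2, fell from 53.6 and 52.8 CPM to 43.9 and 41.6 CPM (log2 -0.32, adjusted p = 0.0053). RAB9A, which returns mannose 6-phosphate receptors from late endosomes to the Golgi, rose from 14.1 and 13.2 CPM to 21.6 and 17.5 CPM (log2 0.51, adjusted p = 0.0047). Groups of both genes do not overlap, although the shWNK1 libraries of RAB9A differ from each other by more than the gap to NS. RAB29 was not called without shWNK1 replicate 2 (adjusted p = 0.105), nor RAB9A without shWNK1 replicate 1 (adjusted p = 0.181). With 3 of 7 called (42.9%), the class was near the 38.8% of all genes, and the other 4 were not called: RAB24 of autophagosome clearance (log2 0.02), RAB32 (-0.43) and RAB38 (-0.46) of lysosome-related organelles, and RAB9B (0.77). In CPM per kb, the class of 9 genes summed to 71.6 and 68.4 in shWNK1 against 111 and 118 in NS, a ratio of 0.611.

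Every one of the 7 early endosome RABs was called, 5 down and 2 up, beside 38.8% of all genes called. All 7 had groups that do not overlap, beside 68.4% of all genes, but so did every called RAB, so this adds nothing to the calls. The classes were drawn up with earlier results of these data known, and the count depends on which RABs were placed in this class. RAB22A, of the RAB5 subfamily, sorts cargo in early endosomes. It measured 24.9 and 25.2 CPM in shWNK1 against 56.8 and 48.9 CPM in NS (log2 -1.08, SE 0.103, adjusted p = 3.7e-10). RAB31, which carries receptors between the trans-Golgi and endosomes, measured 37.6 and 36.3 CPM against 68.6 and 64.4 CPM (log2 -0.85, SE 0.089, adjusted p = 2.7e-09). For both genes the shWNK1 replicates are almost equal and stand well below the lower NS library. The RAB5 proteins drive fusion of early endosomes through the tether EEA1, and their 3 genes went different ways. RAB5C fell from 29.4 and 33.3 CPM to 19.8 and 17.9 CPM (log2 -0.74, SE 0.121, adjusted p = 9.2e-06). RAB5A rose from 29.7 and 29.5 CPM to 39.4 and 35.3 CPM (log2 0.33, adjusted p = 0.012). RAB5B rose from 51.5 and 55.2 CPM to 67.7 and 60.5 CPM (log2 0.26, adjusted p = 0.016). The 2 rises are small, and without shWNK1 replicate 1 neither was called, with a log2 fold change of 0.26 for RAB5A (adjusted p = 0.206) and of 0.19 for RAB5B (adjusted p = 0.291). RAB5B was also not called without NS replicate 1 (adjusted p = 0.0555) or by DESeq2 (adjusted p = 0.0624). RAB21, which moves integrins inward, fell from 60.0 and 57.0 CPM to 48.4 and 48.3 CPM (log2 -0.28, adjusted p = 0.011). Its call was lost without either shWNK1 library (adjusted p = 0.107 and 0.102). RAB20, linked to phagosome maturation, had 6 and 3 counts with the WNK1 hairpin against 16 and 22 with NS (log2 -2.19, SE 0.738, adjusted p = 0.018). At so few counts its large fold change is imprecise, and its call was lost without any single library (adjusted p from 0.053 without NS replicate 1 through 0.0872 without shWNK1 replicate 1 and 0.167 without NS replicate 2 to 0.255 without shWNK1 replicate 2) and by DESeq2 (0.0585). Without shWNK1 replicate 1 the class had 3 falls and 0 rises, and without shWNK1 replicate 2 it had 3 falls and 2 rises, when 23.0% and 23.3% of all genes were called. Summed over the 7 genes, early endosome RABs stood at 40.8 and 37.6 CPM per kb in shWNK1 and at 49.5 and 49.8 in NS, a ratio of 0.790. Of the exon bases of RAB5C, 30.4% are shared with other annotated genes, 28.8% with a gene on the same strand, so part of its reads may have gone uncounted.

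Of the 7 tested recycling endosome RABs 4 rose, mostly by small amounts, and 2 fell, beside 18.5% of all genes rising and 20.2% falling. RAB12, which takes recycling receptors toward lysosomes, changed most: 28.4 and 28.9 CPM in shWNK1 against 16.1 and 15.8 CPM in NS. Its replicates agree closely within each group, and the log2 fold change was 0.85 (SE 0.124, adjusted p = 1.4e-06). RAB11A and RAB11B, the core RABs of slow recycling, and RAB14, which links endosomes with the Golgi, rose by less. RAB11A measured 66.3 and 60.1 CPM against 51.1 and 56.7 (log2 0.23, adjusted p = 0.037). RAB11B measured 83.3 and 88.4 CPM against 70.5 and 72.2 (log2 0.27, adjusted p = 0.0059). RAB14 measured 102 and 101 CPM against 88.0 and 88.8 (log2 0.20, adjusted p = 0.026). These 3 genes have groups that do not overlap, but the gap for RAB11A is smaller than the spread within either group. RAB35, of fast recycling and cytokinesis, fell from 148 and 170 CPM to 113 and 111 CPM (log2 -0.50, SE 0.070, adjusted p = 6.4e-07). RAB4A, of the fast recycling route, fell from 33.7 and 35.8 CPM to 28.4 and 28.5 CPM (log2 -0.29, adjusted p = 0.031). RAB15 was not called, with 6.77 and 4.18 CPM against 6.45 and 7.15 CPM. The calls of the smaller changes depended on the libraries used. RAB11A was not called without shWNK1 replicate 1 (adjusted p = 0.372) or 2 (0.0774) or NS replicate 1 (0.193), nor by DESeq2 (0.120), with no filter on low counts (0.0601) or with the replicate block (0.0655). RAB14 was not called without shWNK1 replicate 1 (0.182) or 2 (0.169), by DESeq2 (0.0750) or with no filter (0.0542), and RAB11B was not called without shWNK1 replicate 2 (0.161). RAB4A was not called without shWNK1 replicate 1 (0.167) or 2 (0.156) or NS replicate 2 (0.120), by DESeq2 (0.0919) or with upper-quartile factors (0.0633). RAB35 shares 14.8% of its exon bases with the antisense gene RAB35-AS1, and counting ignored strand. The class sum of 121 and 121 CPM per kb in shWNK1 overlapped 115 and 123 in NS.

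At the ER and Golgi 4 of 14 tested RABs rose, 2 fell and 8 were not called, so that 42.9% were called, near the 38.8% of all genes. RAB6A, which directs Golgi carriers back to the ER and out to the cell surface, rose from 144 and 143 CPM to 200 and 201 CPM. The replicates of each group differ by less than the groups do, and the log2 fold change was 0.48 (SE 0.062, adjusted p = 1.4e-07). RAB6A moved from number 7 to number 3 among the RABs by CPM per kb, from 29.3 to 41.0. RAB1A and RAB1B tether ER-derived vesicles at the Golgi. RAB1A fell from 94.8 and 102 CPM to 82.2 and 69.2 CPM (log2 -0.38, adjusted p = 3.5e-04), a call lost without shWNK1 replicate 2 (adjusted p = 0.0787). RAB1B measured 133 and 132 CPM against 110 and 126 CPM and was not called (log2 0.17, adjusted p = 0.059). It passed the threshold without NS replicate 2 (adjusted p = 5.9e-04) and with upper-quartile factors (adjusted p = 0.0197). RAB2A and RAB2B act between the Golgi, the ER and lysosomes. RAB2A fell from 109 and 116 CPM to 91.5 and 94.7 CPM (log2 -0.27, adjusted p = 0.0026), and RAB2B rose from 13.7 and 11.8 CPM to 20.2 and 17.7 CPM (log2 0.57, adjusted p = 0.0021). Without shWNK1 replicate 1 neither was called (adjusted p = 0.0932 for RAB2A and 0.0765 for RAB2B). RAB36, linked to lysosome positioning, measured 6.88 and 7.15 CPM against 4.51 and 4.67 CPM (log2 0.61, adjusted p = 0.029). RAB39B, mutated in X-linked intellectual disability with parkinsonism, measured 7.34 and 7.10 CPM against 5.80 and 3.43 CPM (log2 0.64, adjusted p = 0.032). Both are low in these cells, and their calls are fragile. RAB36 was not called without any single library (adjusted p from 0.0530 without NS replicate 2 and 0.0777 without NS replicate 1 to 0.106 and 0.163 without shWNK1 replicates 1 and 2) or by DESeq2 (0.114). RAB39B was not called without shWNK1 replicate 1 (0.162) or 2 (0.132) or NS replicate 2 (0.354), or by DESeq2 (0.127). RAB18 of ER and lipid droplet contacts (log2 0.02), RAB30 of the Golgi (-0.06), RAB33A (-0.17) and RAB33B (0.09) were not called, with RAB18 at 44.4 and 44.4 CPM against 47.0 and 40.7 CPM. RAB6B (-1.16), RAB34 (-0.82) and RAB43 (-0.67) were not called either and stood at 0.401 to 5.50 CPM. RAB43 was called without shWNK1 replicate 2 (adjusted p = 0.0473) or NS replicate 1 (0.0256), but 79.3% of its exon bases are shared with the readthrough gene ISY1-RAB43. RAB1A shares 22.9% of its exon bases with CEP68 on the opposite strand, and RAB1B shares 43.8% with opposite-strand genes. Without strand their levels, and the ranks per kilobase set beside them, are uncertain. Summed, ER and Golgi RABs stood at 185 and 182 CPM per kb in shWNK1 and at 169 and 179 in NS, a ratio of 1.06.

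Of the 9 tested RABs of secretory vesicles and the plasma membrane, 2 rose, 1 fell and 6 were not called, so that 33.3% were called, near the 38.8% of all genes. RAB27A, which docks secretory lysosomes and exosome-bearing bodies at the cell surface, fell from 90.8 and 93.6 CPM to 66.9 and 64.5 CPM. Its groups are well separated, with a log2 fold change of -0.49 (SE 0.077, adjusted p = 4.2e-06). RAB27B was not tested, with 1 count in all libraries together, so RAB27A supplied nearly all RAB27 transcript. RAB8B, which sends vesicles from the trans-Golgi to the plasma membrane, rose from 36.7 and 33.9 CPM to 58.0 and 50.2 CPM (log2 0.61, SE 0.097, adjusted p = 5.2e-06). RAB3B, of regulated exocytosis, rose from 32 and 21 counts to 56 and 74 counts, or from 1.88 and 1.24 CPM to 3.21 and 3.6 CPM (log2 1.13, SE 0.364, adjusted p = 0.014). The RAB3B call did not last without shWNK1 replicate 1 (adjusted p = 0.0575) or 2 (0.125) or NS replicate 2 (0.0940), nor with DESeq2 (0.0552). RAB10, which delivers cargo to the plasma membrane and shapes the ER, had the highest level per kilobase of all exon bases in both groups. It stood at 95 CPM per kb in shWNK1 and 90.1 in NS. RAB1B, number 3 in NS and number 2 in shWNK1, shares 43.8% of its exon bases with other genes. Reads there may go uncounted, so the order of RAB10 and RAB1B is uncertain. The RAB10 libraries overlapped, with 359 and 336 CPM in shWNK1 and 337 and 321 CPM in NS (log2 0.08, SE 0.059, adjusted p = 0.32). RAB8A measured 50.7 and 53.9 CPM against 45.9 and 51.1 CPM (log2 0.11, adjusted p = 0.35), and 43.9% of its exon bases are shared with other genes. RAB3D of secretory granules (log2 -0.04), RAB3A of synaptic vesicles (-0.28), and RAB26 (0.63) and RAB37 (0.69) of granule release were not called. The class sum overlapped between groups, at 139 and 131 CPM per kb against 132 and 129.

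RAB40 proteins carry a SOCS box and serve as substrate receptors of ubiquitin ligases, and both well-covered RAB40 genes rose. These 2 genes were the only calls among the 6 tested RABs of cilia, ubiquitin ligases and less studied roles. That is 33.3% called, near the 38.8% of all genes. RAB40B measured 7.51 and 5.69 CPM in shWNK1 against 2.64 and 2.36 CPM in NS, at log2 1.39 (SE 0.267, adjusted p = 7.9e-05) the largest rise among the called RABs. RAB40C measured 33.5 and 33.6 CPM against 21.1 and 23.0 CPM (log2 0.61, SE 0.114, adjusted p = 5.9e-05). In each gene both shWNK1 libraries lie above both NS libraries by more than the spread within either group. RAB40A had 18 and 16 counts against 3 and 8 counts and was not called (log2 1.46, SE 0.733, adjusted p = 0.12). RAB23, an inhibitor of hedgehog signalling (log2 -0.08), RAB28 of cilia (0.06) and RAB42 (0.17) were not called, and 57.8% of the exon bases of RAB23 are shared with BAG2 on the opposite strand. These 6 genes summed to 27.7 and 24.2 CPM per kb in shWNK1 and 22.0 and 21.9 in NS.

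The remaining 13 members were too low to test. RAB3C, RAB7B and RAB39A had 0 counts in every library, which allows up to 0.149 to 0.177 CPM in each. RAB4B had 0 and 7 counts against 0 and 5 in NS, although 39.7% of its exon bases are shared with other genes. RAB41 had 4 and 1 counts against 2 and 6, and RAB17 had 2 and 5 against 3 and 0. RAB6C, RAB6D, RAB13, RAB19, RAB25, RAB27B and RAB44 had at most 4 counts in any library. RAB6C and RAB6D share 35.9% and 36.4% of their 75-base stretches with each other, so reads from either can be lost to the mapping quality minimum. RAB13 and RAB25 serve junctions and apical recycling in epithelia and RAB3C and RAB27B serve regulated secretion, and none was detected above a few counts here.

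In the RAB1, RAB2 and RAB5 subfamilies the shares of the paralogs shifted more than their sum. RAB5 transcripts summed to 28.0 and 25.1 CPM per kb in shWNK1 and 26.4 and 28.3 in NS, which overlap. RAB5C gave 25.6% and 25.8% of that sum in shWNK1 against 40.3% and 42.5% in NS, so it was the largest RAB5 share in NS and the smallest in shWNK1. RAB1 transcripts summed to 92.9 and 88.6 CPM per kb against 85.1 and 95.1, with RAB1A giving 26.7% and 23.6% against 33.6% and 32.3%. For RAB2 the sums were 22.0 and 21.9 CPM per kb against 23.3 and 24.0, and RAB2B gave 25.5% and 22.5% against 16.4% and 13.7%. In these 3 subfamilies the shares do not overlap between groups, while the sums overlap for RAB1 and RAB5. Shares of RAB8A (47.5% and 52.7% in shWNK1 against 56.4% and 60.9% in NS) and of RAB40C do not overlap either. Such shares restate the fold changes above, and the groups did not overlap for 68.4% of all genes. RAB8 and RAB11 sums were instead higher in both shWNK1 libraries, at 21.6 and 20.8 CPM per kb against 16.5 and 17.0, and at 47.7 and 48.9 against 39.5 and 41.3. RAB40 summed to 9.50 and 9.16 CPM per kb against 5.51 and 6.01, most of it RAB40C. RAB6A alone made up 99.2% to 99.8% of RAB6 in every library. Differences in fold change between paralogs were not tested. Over all 63 genes, RAB transcripts summed to 585 and 565 CPM per kb in shWNK1 and 598 and 620 in NS, a ratio of 0.944. The group mean of this sum went from 609 in NS to 575 in shWNK1. RAB7A alone went from 75.7 to 32.9 CPM per kb, a larger drop than that of the whole sum.

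**Figure D3:**
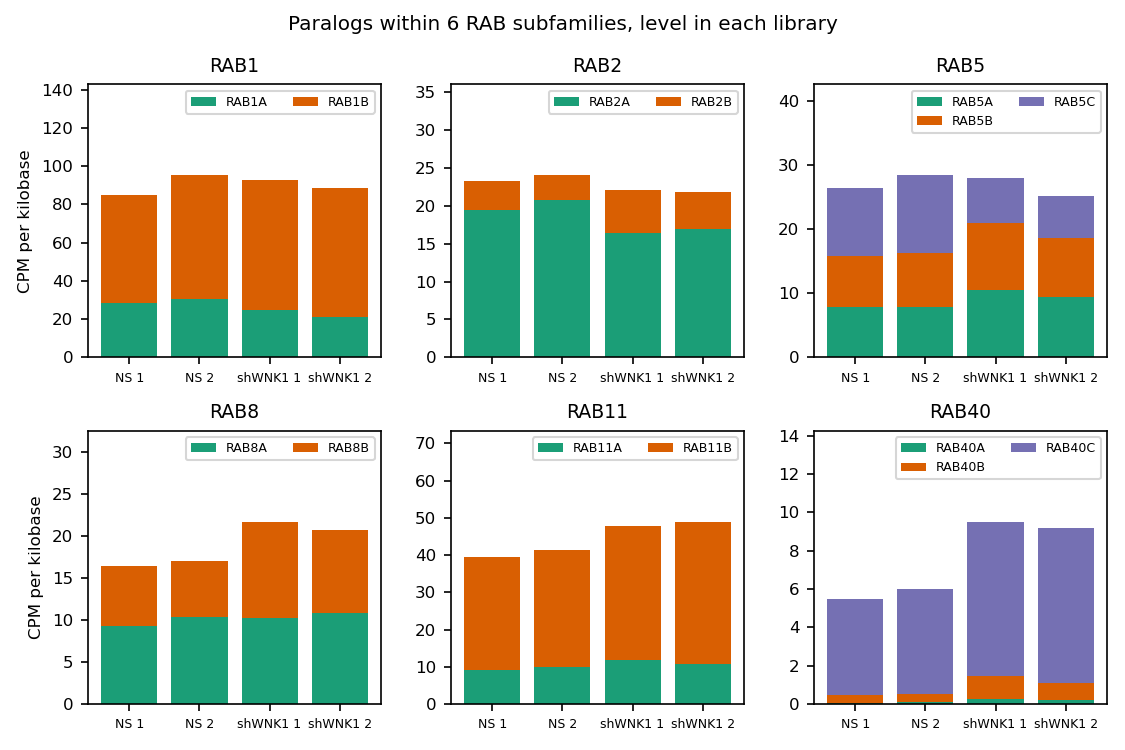
Stacked levels of the paralogs in 6 RAB subfamilies (CPM per kilobase of exon, 1 bar per library, axes start at 0). RAB5C shrinks from 40.3% and 42.5% of RAB5 in NS to 25.6% and 25.8% in shWNK1 under overlapping totals, and RAB40 totals are higher in both shWNK1 libraries.

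Beyond the windows shown above, 16 of the 50 tested RABs (32%) carried AGTATC in their annotated 3′ UTR, beside 2447 of the 11798 tested genes searched (20.7%). It occurred in 9 of the 12 RABs that fell (75%), in 5 of 23 not called (21.7%) and in 2 of 15 that rose (13.3%). Over all genes the same shares were 31.5% of falls, 18.1% of genes not called and 15.5% of rises. The falls that hold it were RAB2A, whose sequence is not printed here, RAB4A, RAB5C, RAB7A, RAB21, RAB22A, RAB27A, RAB29 and RAB31, with 3 copies each in RAB21 and RAB22A. RAB1A, RAB20 and RAB35 fell without it. RAB11A rose with 1 copy and RAB3B with 3, and RAB6B, RAB15, RAB30, RAB32 and RAB42 hold it and were not called. Members with the word had a median log2 fold change of -0.32 (16 genes) and members without it 0.18 (34 genes), against -0.13 and 0.02 for all genes with and without it. UTR lengths differed too: the median 3′ UTR was 2253 bases in falling RABs and 2562 bases in rising RABs, against 1156 and 1492 bases over all falling and rising genes. WNK1 has 1 copy in a 3′ UTR of 2660 bases. The hairpin sequence is not given in the sources used here, and whether the word has any part in the falls was not tested.

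**Figure D4:**
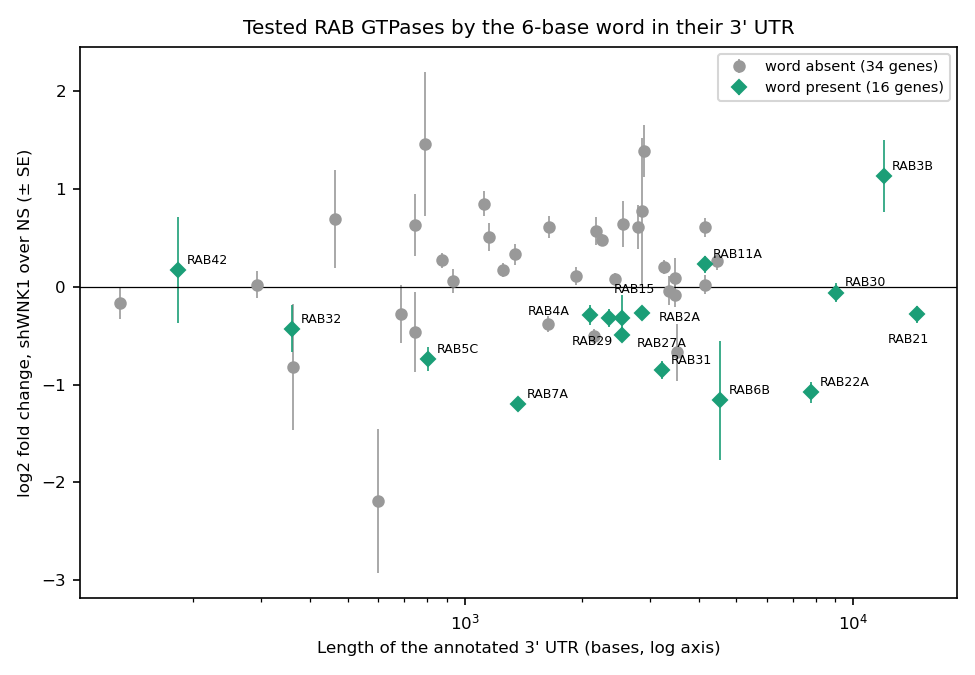
Log2 fold change (shWNK1 over NS, bars are 1 standard error) of each of the 50 tested RAB genes against the length of its annotated 3′ UTR in bases (log axis), with diamonds for the 16 genes that hold the 6-base word. The members with the word have a median of -0.32 and those without it 0.18, and RAB3B and RAB11A hold the word and rose.

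RefSeq promoters (GRCh38.p14, 250 bases before to 50 after the start) were found for 50 of the 63 members, 38 of them tested. CACGTG, the E-box word that MYC-family and lysosomal (CLEAR-type) factors can bind and that reads the same on both strands, was in 6 of those 38 (15.8%), beside 10.1% of 10536 promoters of tested genes and 7.43% of all 27305. It was in 4 of 9 promoters of falling RABs (44.4%) and in 1 of 12 of rising RABs (8.33%), beside 11.9% of promoters of all falling genes and 9.93% of all rising genes. Of the called RABs with the word, only RAB31 was called under all 10 alternatives, so these shares rest on fragile calls. The windows are printed because both directions of change occur among them, with CACGTG in capitals.
RAB4A (fell): gcccagcccgcgCACGTGcttccggcgcgc
RAB21 (fell): ggcaccggcgctCACGTGacccgaggtgtg
RAB29 (fell): caggcaaccctgCACGTGacgcttgcggag
RAB31 (fell): ccggccggcggcCACGTGacccaccgcggc
RAB5A (rose): cactcgcagggtCACGTGacatcctgcctc
RAB24 (not called): cggcgcccgcgcCACGTGaccttgcggccc
RAB4A (chr1:229270997-229271026), RAB21 (chr12:71754831-71754860), RAB31 (chr18:9708229-9708258) and RAB5A (chr3:19946964-19946993) are on the plus strand, and RAB29 (chr1:205775446-205775475) and RAB24 (chr5:177303732-177303761) on the minus strand. The word begins 102 bases before the start in RAB4A, 20 before in RAB21, 60 before in RAB31, 121 before in RAB5A and 30 before in RAB24, and at base 20 after the start in RAB29. The cyclic AMP response element TGACGTCA and the unfolded protein response element TGACGTGG, searched on both strands, were in none of the 38 tested RAB promoters, beside 3.36% and 0.94% of promoters of tested genes. A matching word in these windows is a description of sequence, and the data hold no measurement of factor binding.

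The genes that load, switch and read out RABs moved upward more often than downward. Of 152 listed regulators and effectors 136 were tested, and 47 rose (34.6%, beside 18.5% of all genes) while 21 fell (15.4%, beside 20.2%), with a median log2 fold change of 0.15. With DESeq2 the rises numbered 36, while rises over all genes went from 2755 to 1992. Both counts were also lower when either shWNK1 library was left out. In the prenylation step, the RAB escort gene CHML fell from 62.0 and 55.5 CPM to 32.7 and 30.9 CPM (log2 -0.89, adjusted p = 4.4e-09). The other escort gene, CHM, was not called (log2 -0.06, adjusted p = 0.79). The geranylgeranyl transferase subunits split, with RABGGTB at log2 -0.27 (adjusted p = 0.0027) and RABGGTA at 0.30 (adjusted p = 0.047). Exchange factors showed 18 rises and 6 falls among 53. RAB3IL1, which activates RAB3 and RAB8 proteins, fell from 24.1 and 28.2 CPM to 12.7 and 13.2 CPM, while DENND2C (log2 0.67) and DENND4B (0.47) rose. GTPase-activating proteins showed 11 rises and 4 falls among 33. TBC1D4 and TBC1D1, which act on RABs of glucose transporter vesicles such as RAB10, fell by 0.87 and 0.78 on the log2 scale, and TBC1D13, which acts on RAB35, rose by 0.63. Effectors showed 15 rises and 9 falls among 39. PLEKHM1, a RAB7 effector of lysosome fusion, rose from 23.4 and 26.3 CPM to 43.6 and 48.2 CPM (log2 0.89, adjusted p = 3.7e-08), while RAB7A itself fell. Effectors of RAB7 did not move together. FYCO1 rose by 0.63 (adjusted p = 2.2e-06), OSBPL1A fell by 0.61 (adjusted p = 1.7e-06) and RILP was not called (log2 0.60). RAB11FIP4 of the RAB11 recycling route (log2 0.96) and GCC2, a Golgi tether that binds RAB6 (0.73), rose, but some effectors of the same RABs did not. Of the other RAB11FIP genes, RAB11FIP1 (log2 0.59, adjusted p = 5.1e-04) and RAB11FIP3 (0.64, adjusted p = 4.7e-05) also rose. RAB11FIP5 fell by 0.36 (adjusted p = 5.7e-04), RAB11FIP2 was not called (log2 -0.13), and the RAB6 effector BICD2 fell by 0.41 (adjusted p = 5.4e-06). PPM1H, the phosphatase that reverses LRRK2 phosphorylation of RABs, rose from 16.2 and 15.3 CPM to 29.8 and 32.2 CPM (log2 0.98, adjusted p = 9.5e-08).

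**Figure D5:**
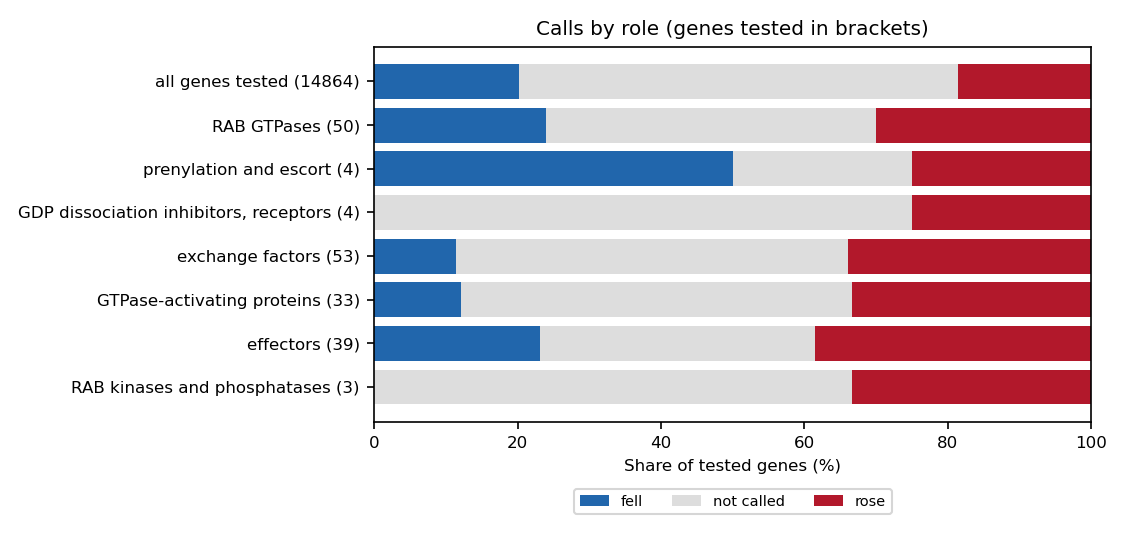
Share of tested genes that fell, were not called or rose in shWNK1 against NS (percent, from 0 to 100), for all genes, the RAB GTPases and the 6 classes of RAB regulators and effectors, with the number tested in brackets. Exchange factors, GTPase-activating proteins and effectors have more rises (18, 11 and 15) than falls (6, 4 and 9), and the classes of 3 or 4 genes are too small to compare.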

How the data were processed

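Total RNA of 4 JJN3 libraries was compared. The authors deposited raw counts per gene, made with featureCounts 2.0.0 on GENCODE 34, per the file headers: fragments of read pairs, strand ignored, both ends mapped with a quality of 20 or more, no chimeric pairs, and no option to count multimapping or multi-overlapping reads. Trimming with Trimmomatic and alignment with STAR to hg38 are per the submitters' processing notes, and their versions are not given in the sources used here. Gene length in bases is a deposited column and was used only for CPM per kb.

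Of 60728 genes listed, 1 broken over several lines and 45 Y copies of pseudoautosomal genes were left out, and 60369 identifiers of the other 60682 matched a symbol. Of 71 matching names, 8 pseudogenes were dropped. Counts were kept by filterByExpr, scaled by TMM and tested two-sided with edgeR 4.0.16 (glmQLFit robust, glmQLFTest, R 4.3.3), with Benjamini-Hochberg adjustment over all 14864 genes and a threshold of 0.05. CPM use TMM-scaled library sizes. Limits from a count of 0 cover counting error only. The tests were tried on simulated data with known answers. The members, compartments, regulator and marker lists and sequence words were chosen with earlier results of these data known. All members are accounted for, and up to 3 called regulators per role were named by smallest p, except 1 that is not reported here. The marker lists cover plasma cell and myeloma, mature B, T and NK, myeloid, erythroid, and stromal, endothelial and epithelial cells. For 3′ UTRs, 1 transcript per gene was read from GENCODE 29 (principal isoform, then longest 3′ UTR), and overlaps of exons come from the table's coordinates. Alternatives were DESeq2 1.42.0, no filter on low counts, a filter of 1 CPM in 2 libraries, upper-quartile and RLE factors, the replicate block, and leaving out each library.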

Additional observations from a re-analysis of the deposited data

How the results depend on the processing

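No direction reversed among the 27 called RABs under the 10 alternatives. RAB rises numbered 9 with DESeq2 and 6 (without shWNK1 replicate 1) to 13 (without NS replicate 2) when each library was left out, against 15, and falls 8 to 12. The same omissions gave 1632 to 2778 rises and 1964 to 3024 falls over all genes, against 2755 and 3005, and 30 to 50 rises among regulators and effectors, against 47. Where an omission left 1 library in a group, that library was assumed to vary like the other group. Same-numbered libraries also share a letter (A or B) in their column names, which the labels do not explain. They did not deviate together (correlation across genes of -0.00469) and were not taken as pairs. With the replicate block, 14 RABs rose and 12 fell, and over all genes 2539 rose and 2804 fell. Calls were lost by 13 RABs without shWNK1 replicate 1, 11 without shWNK1 replicate 2, 4 without NS replicate 1 and 5 without NS replicate 2. The cause of these changes was not tested. Changes in RABs under about 1 CPM, such as RAB20 and RAB40A, are limited by depth.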
